A study of Mus musculus with 2 samples.

Results

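The 6 genes described here encode the machinery by which a cell shows peptides to CD4 T lymphocytes: the invariant chain Cd74, the class II chains H2-Aa, H2-Ab1 and H2-Eb1, and the peptide editor chains H2-DMa and H2-DMb1. They were chosen by name, and all 6 were found among the 19537 genes of the matrices. Their UMIs (unique molecular identifiers, each marking 1 captured transcript) were read in CD11b+CD45int microglia of mice that lack PARK7/DJ-1 and of wildtype mice, collected 24 h after LPS (lipopolysaccharide, a molecule of the bacterial outer membrane) was injected into the peritoneum. The KO mice carry the gene-trap allele Park7 Gt(XE726)Byg on a C57BL/6NCrl background, the controls are their wildtype littermates, and both are young adults. The groups are called KO LPS and WT LPS, and they address how microglia respond to inflammation without DJ-1, whose gene is mutated in some inherited forms of Parkinson's disease.

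There was 1 Drop-seq library per genotype, and each pooled 2 mice (1 female and 1 male). Genotype and library cannot be told apart, no test between them was made, and no untreated library was used here. All intervals are 95% and cover counting error only.

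Class II molecules are αβ dimers that load peptides in endosomes. The invariant chain holds the groove closed on the way there, cathepsin S trims it to a short remnant (CLIP), and the DM dimer exchanges CLIP for peptide. Transcription of the whole set is driven by the coactivator CIITA, which docks on factors bound to the X and Y boxes of these promoters. Resting microglia hold little class II, and interferon-γ is the classical inducer. Mice of the C57BL/6 strain lack a functional E alpha gene and so show no E molecule at the cell surface, although H2-Eb1 can be transcribed.

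The promoter sequences are shown because these boxes are what the class II genes are known to share. RefSeq windows around the gene start (GRCm38.p6) were matched for 4 of the 6 members: H2-Aa, H2-Eb1, H2-DMa and H2-DMb1. The stretches below run from position -120 to -31, where -1 is the base before the gene start. Capitals mark the Y box letters TGATTGG, the X2 box letters TGACGTCA and the X1 box core, which is the longer run of capitals ahead of the Y box, each searched on both strands. H2-Aa lies on the minus strand at chr17:34287854-34287943, H2-Eb1 on the plus strand at chr17:34305747-34305836, and H2-DMb1 on the plus strand at chr17:34153071-34153160.
H2-Aa: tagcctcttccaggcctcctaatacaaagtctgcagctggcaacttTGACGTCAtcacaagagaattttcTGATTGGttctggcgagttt
H2-Eb1: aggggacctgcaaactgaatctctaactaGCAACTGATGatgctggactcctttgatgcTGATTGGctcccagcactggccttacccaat
H2-DMb1: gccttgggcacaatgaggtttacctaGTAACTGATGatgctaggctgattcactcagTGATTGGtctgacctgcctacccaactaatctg

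The Y box letters began at -50 in H2-Aa, -61 in H2-Eb1 and -63 in H2-DMb1, and 7.82% of all 32851 windows held them. The X1 letters stood upstream of them in H2-Eb1, at -91, and in H2-DMb1, at -94, and 0.782% of windows held these. The X2 letters were found in H2-Aa at -74 and in 1.79% of windows. X1 and Y letters occurred together in 26 windows, or 0.079% of all. The 2 windows of H2-DMa held none of the 3 motifs. On chromosome 17 the members follow the order H2-DMa, H2-DMb1, H2-Ab1, H2-Aa, H2-Eb1, with the class I processing genes Psmb9, Tap1, Psmb8 and Tap2 between the DM chains and the αβ chains.

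Cells were barcodes with at least 500 UMIs and at least 100 genes: 320 of 9999 in KO LPS and 1427 of 9999 in WT LPS, which held 381305 and 1989011 UMIs. The median depth was 963.5 and 1065 UMIs per cell, and 0 cell barcodes were shared. Park7 had 1 UMI in KO LPS against 323 in WT LPS. Of 8 microglia markers all were detected in both libraries, and at least 2 marker UMIs were present in 316 of 320 and 1400 of 1427 cells, so the cells carried the profile of the sort. The summed level of these markers was 24733 CPM in KO LPS against 12198 CPM in WT LPS, where CPM is UMIs per 1000000 UMIs of the cells. The libraries stood apart in their response genes. Saa3, an acute-phase gene of activated microglia, had 0 UMIs in KO LPS against 8367 in WT LPS, and Lcn2, which encodes an iron-sequestering lipocalin, had 0 and 885. A set of 7 interferon-induced genes stood at 26.2 CPM against 344 CPM. Transcripts of the choroid plexus, mainly Ttr, made up 1883 CPM of KO LPS against 11.1 CPM of WT LPS. Of the cells of KO LPS, 209 held a UMI of the female-specific Xist and 12 held Y-linked UMIs without Xist, against 645 and 195 in WT LPS. A further 99 and 587 cells held neither, and 9 and 80 of the Xist cells also held Y-linked UMIs. The library labelled KO LPS therefore goes against its description in its response genes. Saa3 and Lcn2, which LPS is known to induce in microglia, were at 0 in its cells. Few of its cells held Y-linked UMIs without Xist although the pool is given as 1 female and 1 male, but the sex of cells with neither is not resolved. The study, which split cells by Xist level alone, assigned KO cells to both sexes. Each KO LPS over WT LPS ratio below compares the libraries as labelled, and genotype, LPS response and make-up cannot be told apart in it. The part of these differences in the values below was not tested, except where values within such cells are given.

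Cd74 was the member that separated the libraries. KO LPS had 4 UMIs of it in 3 cells, whereas WT LPS had 306 UMIs in 201 cells. The level was 10.5 CPM (2.86 to 26.9) in KO LPS against 154 CPM (137 to 172) in WT LPS. The KO LPS over WT LPS ratio of 0.0682 (0.0185 to 0.176) is a 14.7-fold lower level. Of the 9085 genes that reached 20 UMIs over both libraries, 15.3% were at least 2-fold lower in KO LPS and 13.5% at least 2-fold higher. Cd74 was past 2-fold in the lower direction, and the DM chains, the other members with enough UMIs, were not past it in either direction. A 2-fold difference was thus common between these libraries, and the whole interval of Cd74 lay below a ratio of 0.5.

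The chains of the surface dimer were near the limit of detection in both libraries. H2-Ab1, the beta chain of the A molecule, had 1 UMI in KO LPS against 15 in WT LPS, or 2.62 CPM (0.0664 to 14.6) and 7.54 CPM (4.22 to 12.4). The ratio of 0.348 had an interval of 0.00826 to 2.26, and no difference was detectable at this depth. H2-Aa, its alpha chain, had 0 and 4 UMIs, and H2-Eb1, the beta chain of the E molecule, had 0 and 3. A count of 0, with the limit taken at 3 counts, allows up to 7.87 CPM in KO LPS, which is above the WT LPS levels of 2.01 and 1.51 CPM, so that no fold is given. Neither gene was listed in the deposited KO LPS matrix. Summed over the 3 chains, KO LPS held 1 UMI, whereas WT LPS held 22 UMIs in 19 cells.

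The chains of the peptide editor did not differ detectably between the libraries. For H2-DMa, KO LPS had 38 UMIs in 32 cells, whereas WT LPS had 142 UMIs in 125 cells, or 99.7 CPM (70.5 to 137) and 71.4 CPM (60.1 to 84.1). Its ratio was 1.40 (0.949 to 2.01). H2-DMb1 had 30 UMIs in 28 cells and 151 UMIs in 138 cells, or 78.7 CPM (53.1 to 112) and 75.9 CPM (64.3 to 89.0), with a ratio of 1.04 (0.676 to 1.54). These intervals leave room for differences of up to about 2-fold for H2-DMa. Both genes carry a limit of counting. The H2-DMa and Brd2 gene spans overlap on opposite strands by 3122 bases in the RefSeq table, and whether counting used the strand is not given in the sources used here. H2-DMb1 and its neighbour H2-DMb2 are 93.7% identical over the aligned bases of 1 transcript each. Over the last 500 bases, where this method reads, only 329 bases aligned and 86.9% of them were identical, and how reads shared by both were counted is not given in the sources used here.

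**Figure D1:**
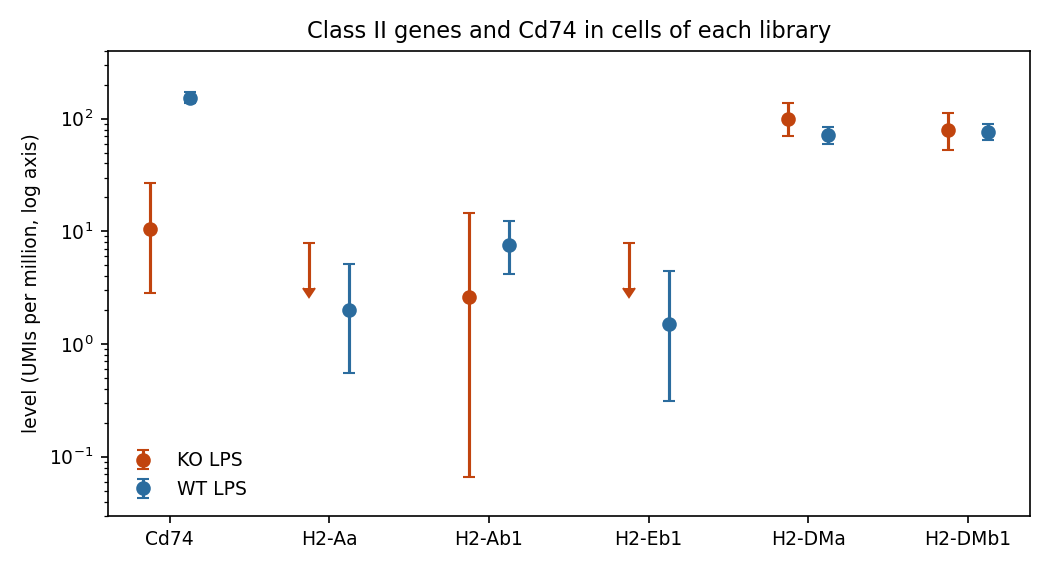
Level of each member in CPM (log axis) in the cells of KO LPS (320 cells) and WT LPS (1427 cells). Points are the pooled level and bars the exact 95% Poisson interval, and arrows start at the limit of 3 counts (7.87 CPM) for a gene with 0 UMIs. Only Cd74 has intervals that do not overlap, 2.86 to 26.9 against 137 to 172.

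The order of the levels therefore differed between the libraries. As each UMI stands for 1 transcript end, no scaling by length was made. In WT LPS, Cd74 at 154 CPM stood above both DM chains, which had overlapping intervals, and these stood above H2-Ab1, H2-Aa and H2-Eb1. In KO LPS the DM chains were highest, and the interval of Cd74 overlapped that of H2-Ab1. Summed over the 6 genes, the level was 191 CPM (150 to 241) in KO LPS against 312 CPM (288 to 338) in WT LPS, with a ratio of 0.613 (0.474 to 0.782). Without Cd74 the ratio was 1.14 (0.867 to 1.49). The lower sum was thus carried by 1 gene.

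The libraries differed in the make-up of their cells, so Cd74 was read within like cells. In cells with Xist, the KO LPS over WT LPS ratio was 0.0933 (0.0251 to 0.243), with 4 and 165 UMIs. The Y-linked cells held 0 and 52 UMIs, and with 12 such cells in KO LPS the interval ran up to 1.56. In WT LPS the level was 158 CPM (135 to 184) in Xist cells and 169 CPM (126 to 222) in Y-linked cells, so the transcript was present in cells of both sexes. Cells with 0 Saa3 UMIs gave 10.5 and 151 CPM and a ratio of 0.0693 (0.0186 to 0.181). Cells with 0 UMIs of 7 interferon-induced genes gave a ratio of 0.0738 (0.0199 to 0.192), and cells with P2ry12, a receptor of homeostatic microglia, 0.0723 (0.0194 to 0.189). The ratio in cells under 1000 UMIs was 0.0622 (0.00155 to 0.360), and in deeper cells 0.0725 (0.0148 to 0.214). All 320 KO LPS cells held 0 Saa3 UMIs, 311 held 0 interferon-induced UMIs and 288 held P2ry12. The same 4 Cd74 UMIs of KO LPS enter these ratios and that of Xist cells, so mainly the WT LPS side changes between them. The intervals of all the ratios in this paragraph overlapped that over all cells, with which they share cells, so the overlap is no separate evidence. A cell without a UMI of these genes may still express them.

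Within WT LPS, Cd74 did not differ detectably between activation states. Cells with at least 3 Saa3 UMIs held 183 CPM (150 to 222) and cells with 0 held 151 CPM (128 to 177), a ratio of 1.21 (0.936 to 1.56). Cells with at least 2 interferon-induced UMIs held 153 CPM, and those with 0 held 146 CPM. With and without P2ry12 the levels were 155 and 153 CPM. H2-DMb1 was 90.6 CPM with P2ry12 and 62.5 CPM without, a ratio of 1.45 (1.04 to 2.03), where the median depth was 1427.5 and 924 UMIs per cell. This was the largest of the state differences of Cd74 and the DM chains in WT LPS and was picked out after its value was seen. For H2-DMa the KO LPS over WT LPS ratio was 2.30 (1.18 to 4.36) in cells under 1000 UMIs and 1.09 (0.650 to 1.75) in deeper cells. Within KO LPS, H2-DMa stood at 135 CPM in the shallow cells and 82.4 CPM in the deeper ones, with overlapping intervals.

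Shares of cells were compared after each cell had been thinned to 500 UMIs, beside the share that a droplet of 500 UMIs drawn only from free RNA would reach. Free RNA was taken from barcodes of 100 UMIs or fewer. Cd74 was present in 0.313% (0.00791 to 1.73) of KO LPS cells and 6.10% (4.91 to 7.47) of WT LPS cells. The free RNA shares were 0.752% and 3.12% (1.92 to 4.77), and the unthinned shares 0.938% and 14.1%. The WT LPS share was thus above its background, and the KO LPS share was not and is read as background. H2-DMb1 was present in 3.75% (1.95 to 6.46) and 3.57% (2.67 to 4.67) of cells, above free RNA shares of 1.25% and 0.946%, although the KO LPS interval overlapped that of its background. H2-DMa reached 4.06% and 3.64%, with backgrounds of 2.97% and 2.19% whose intervals overlapped those of the cells. For any of the 6 genes the shares were 8.13% (5.38 to 11.7) and 12.5% (10.8 to 14.3), where free RNA gives 5.86% and 6.58%. Unthinned, they were 19.1% and 27.9%.

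Levels in cells and in free RNA were also set side by side. In WT LPS, Cd74 was 154 CPM in cells and 63.3 CPM (38.7 to 97.8) in the near-empty droplets, a ratio of 2.43 (1.55 to 4.03). In KO LPS it was 10.5 and 15.1 CPM, a ratio of 0.695 (0.118 to 4.74). H2-DMb1 was higher in cells in both libraries, with ratios of 3.13 (1.20 to 10.3) and 3.995 (1.79 to 11.1). The 3 αβ chains together stood at 11.1 CPM in WT LPS cells and 9.50 CPM in free RNA, and the ratio of 1.16 (0.350 to 6.08) did not separate them from background.

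**Figure D2:**
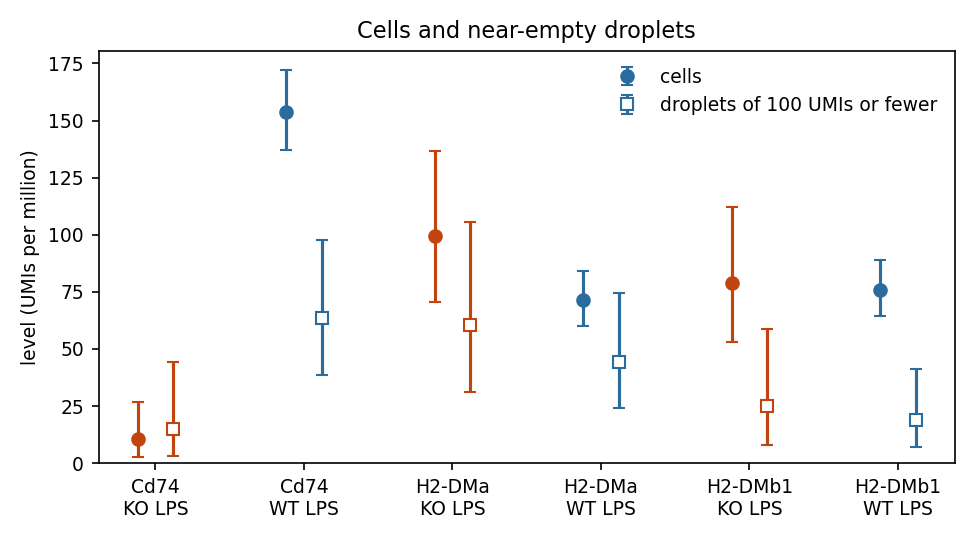
Level of Cd74, H2-DMa and H2-DMb1 in CPM in cells (filled circles) and in droplets of 100 UMIs or fewer (open squares), for each library. Bars are exact 95% Poisson intervals. The cells of WT LPS exceed their droplets for Cd74, 154 against 63.3, while in KO LPS both are low, 10.5 and 15.1.

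Cd74 was unevenly spread over the WT LPS cells. If its 306 UMIs had followed depth alone, 260 cells would hold at least 1, whereas 201 did. At least 2 UMIs were present in 65 cells, where depth gives 37.0, and at least 3 in 23 cells, where depth gives 6.20. The highest cell held 7. The DM chains lay closer to these expectations. H2-DMb1 was present in 138 cells, where depth gives 138, and at least 2 UMIs in 12, where depth gives 10.9. H2-DMa was present in 125 cells, where depth gives 131, and at least 2 UMIs in 14, where depth gives 9.81. Since UMIs of Cd74 cluster in cells, its counting interval in WT LPS is narrower than the spread between cells would give. In KO LPS, 3 cells held all 4 Cd74 UMIs. The 3 highest cells held 13.7% (10 of 73) of the member UMIs in KO LPS against 4.35% (27 of 621) in WT LPS, shares that also depend on how many UMIs there are.

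**Figure D3:**
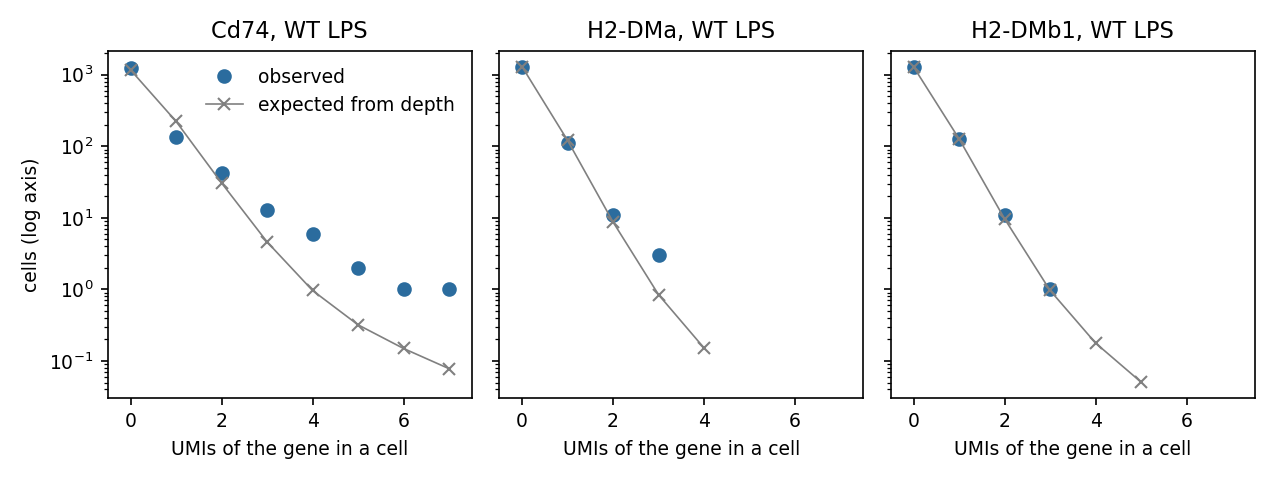
Number of WT LPS cells (log axis) that hold a given number of UMIs of Cd74, H2-DMa or H2-DMb1 (circles), with the number expected if UMIs followed cell depth alone (crosses). Cd74 has 23 cells at 3 or more UMIs where depth gives 6.20, and H2-DMb1 lies on its expectation.

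The αβ chains stood higher in the few cells with most Cd74, although most cells with an αβ chain UMI lay outside that class. In the 23 WT LPS cells with at least 3 Cd74 UMIs, the 3 chains summed to 9 UMIs in 6 cells, or 95.4 CPM (43.6 to 181). They stood at 7.83 CPM (4.05 to 13.7) in the 1226 cells without Cd74, at 3.75 CPM (0.0949 to 20.9) in the 136 cells with 1 UMI, and at 0 UMIs in the 42 cells with 2. Of the 19 cells with an αβ chain UMI, 12 had no Cd74 UMI. Together the 19 held Cd74 at 824 CPM (548 to 1191) against 142 CPM in the other cells, a ratio of 5.80 (3.78 to 8.56). The ratio of the DM chains between the same cells was 0.999 (0.322 to 2.36). By the number of cells that held both, Cd74 and an αβ chain were found together in 7 cells. If the UMIs of each followed depth alone and independently, 5.82 would be found. Cd74 and a DM chain were found together in 60 cells, where this gives 61.7, and both DM chains in 17, where it gives 18.8. Depth alone gives 260 WT LPS cells with Cd74 where 201 were seen, so the expected counts that involve Cd74 are too high. They cannot decide whether Cd74 and the other chains share cells more often than independent spread gives.

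These cells carried microglia markers at the usual level. The microglia list stood at 12469 CPM in the 23 cells and 12004 CPM in the cells without Cd74, and all 23 held at least 2 of its UMIs. The class I light chain B2m was 4856 CPM (4421 to 5322) in the 23 cells and 4091 CPM (3991 to 4194) in the cells without Cd74, and Ctss was 11112 and 10306 CPM. Markers of other class II bearing cells were also found, at levels like those of the members, and their part in the member levels was not tested. The B lymphocyte list stood at 99.7 CPM in KO LPS against 58.3 CPM in WT LPS, and the dendritic cell list at 83.9 CPM against 147 CPM. The B lymphocyte genes Cd79a, Ms4a1 and Pax5 had 0 UMIs in both libraries, and the 116 UMIs of that list in WT LPS came from Ighm and Cd79b. In the 23 cells the B lymphocyte list had 11 UMIs, or 117 CPM (58.2 to 209), against 54.8 CPM (43.7 to 67.9) in cells without Cd74. These intervals overlapped. The dendritic cell genes Xcr1, Clec9a and Cd209a had 0 UMIs. Naaa (9 UMIs in KO LPS against 239 in WT LPS) and Wdfy4 (21 and 43) made up nearly all of the dendritic cell list, which stood at 117 CPM in the 23 cells and 141 CPM in cells without Cd74. Border macrophage markers summed to 62.9 CPM in KO LPS, all from Mrc1, against 46.3 CPM in WT LPS, where all 7 genes were found. In the 23 cells they stood at 53.0 CPM (17.2 to 124), and monocyte markers had 2 UMIs. Neutrophil markers, mainly S100a8 and S100a9, moved with the libraries, with 0 UMIs in KO LPS against 134 in WT LPS, whereas T or NK lymphocyte markers had 0 and 2. Without cells that held at least 2 UMIs over these 6 lists of other types, the Cd74 ratio was 0.0759 (0.0205 to 0.197).

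**Figure D4:**
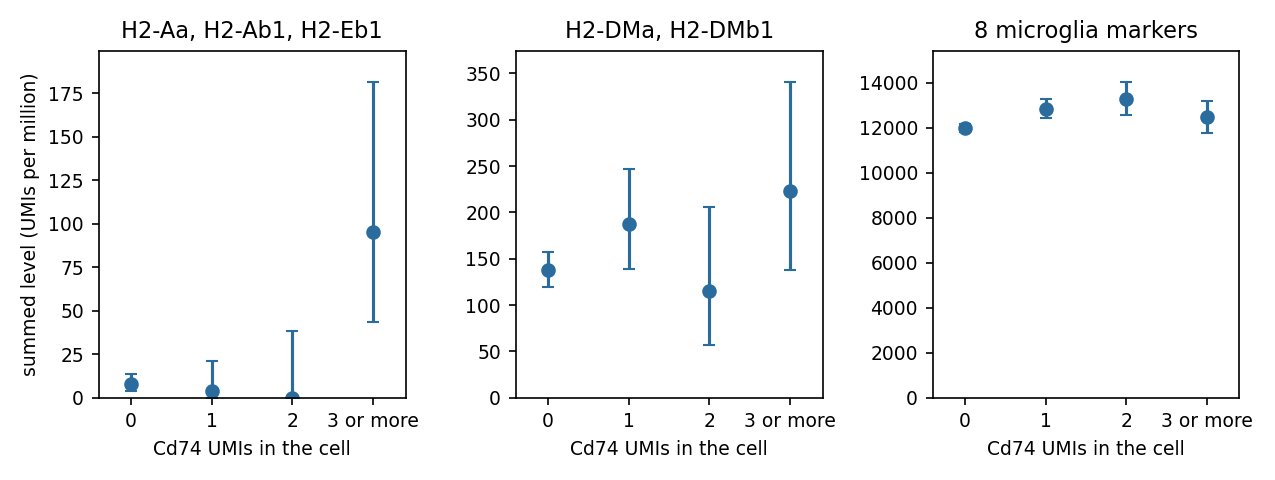
Summed level in CPM of the 3 αβ chains, of the 2 DM chains and of 8 microglia markers in WT LPS cells grouped by their Cd74 UMIs (1226, 136, 42 and 23 cells). Bars are exact 95% Poisson intervals. The αβ chains reach 95.4 in the last class against 7.83 in the first, while the microglia markers stay between 12004 and 13268.

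Among the 10 cells of WT LPS with most member UMIs, a pair stood out by share. A cell of 695 UMIs held 7 Cd74 and 1 H2-Eb1 UMI, which was 1.15% of its transcripts, and a cell of 1719 UMIs held 5 Cd74, 1 H2-Ab1 and 1 H2-Eb1 UMI (0.407%). Over all WT LPS cells the share was 0.0312%. Their microglia markers made up 1.01% and 0.465% of UMIs, against 1.22% over all cells, and neither held a UMI of the other blood or border types. Without this pair, chosen after its values were seen, the 17 other cells with αβ chains held Cd74 at 507 CPM, 3.57 times (2.01 to 5.89) the level elsewhere. The remaining 8 cells had 1791 to 27757 UMIs and 5 to 10 member UMIs, led by Cd74. In KO LPS 7 cells held 2 to 4 member UMIs, and in 6 of them all were of the DM chains.

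Further genes of the pathway lay on both sides of an equal level. Of 32 listed symbols 28 were in the matrices and 23 had at least 20 UMIs. Of these, 4 were at least 2-fold lower in KO LPS, 3 at least 2-fold higher and 16 within 2-fold, with a median log2 ratio of -0.17, against 0.03 over all 9085 genes. Set beside the 15.3% and 13.5% of all genes, these counts are near the background and are no result about the list.

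Among the regulators, Ciita itself had 0 UMIs in both libraries, which allows up to 7.87 CPM of it in KO LPS and up to 1.51 CPM in WT LPS. Irf1, an interferon-induced transcription factor, had a ratio of 0.506 (0.303 to 0.803). The subunits of the X box complex RFX were split, with 5 and 72 UMIs of Rfxap (ratio 0.362, 0.114 to 0.885) and 14 and 35 UMIs of Rfx5 (2.09, 1.04 to 3.98). The interferon-γ receptor chains Ifngr1 and Ifngr2 had ratios of 0.916 (0.814 to 1.03) and 0.799 (0.628 to 1.01), and the kinases Jak1 and Jak2 of 1.58 (1.30 to 1.90) and 0.762 (0.390 to 1.37). The Y box subunits Nfya, Nfyb and Nfyc had ratios of 1.87 (1.31 to 2.64), 0.572 (0.238 to 1.19) and 1.20 (0.513 to 2.53).

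Of the processing genes, the thiol reductase Ifi30, which unfolds antigens in endosomes, was 97.0 CPM in KO LPS against 388 CPM in WT LPS (ratio 0.2503, 0.175 to 0.348). Cathepsin L (Ctsl) had a ratio of 0.304 (0.268 to 0.343). Cathepsin S (Ctss), the protease that cleaves the invariant chain in most antigen-presenting cells, was abundant in both, at 8088 and 10636 CPM (0.760, 0.732 to 0.790). Cathepsin D (Ctsd) was higher in KO LPS, with 3546 against 1220 CPM (2.91, 2.72 to 3.11). March1, which encodes a ubiquitin ligase that removes class II from the surface, had a ratio of 0.886 (0.760 to 1.03). March8, a related ligase, had 13 and 27 UMIs (2.51, 1.19 to 5.04). Of the DO chains, which inhibit DM, H2-Oa had 8 and 25 UMIs (1.67, 0.651 to 3.82). H2-Ob, which has too few UMIs for the list's count, had 12 and 7 (8.94, 3.25 to 26.8). H2-DMb2 had 3 and 16 UMIs, and H2-Eb2 had 0 and 1.

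For contrast, the class I genes B2m, H2-K1 and H2-D1 were all at least 2-fold lower in KO LPS, with ratios of 0.494 (0.459 to 0.532), 0.363 (0.276 to 0.470) and 0.370 (0.308 to 0.442). The upper bound of the Cd74 ratio, 0.176, lay below the lower bound of each. It also reached just above the lower bound of Ifi30, 0.175.

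**Figure D5:**
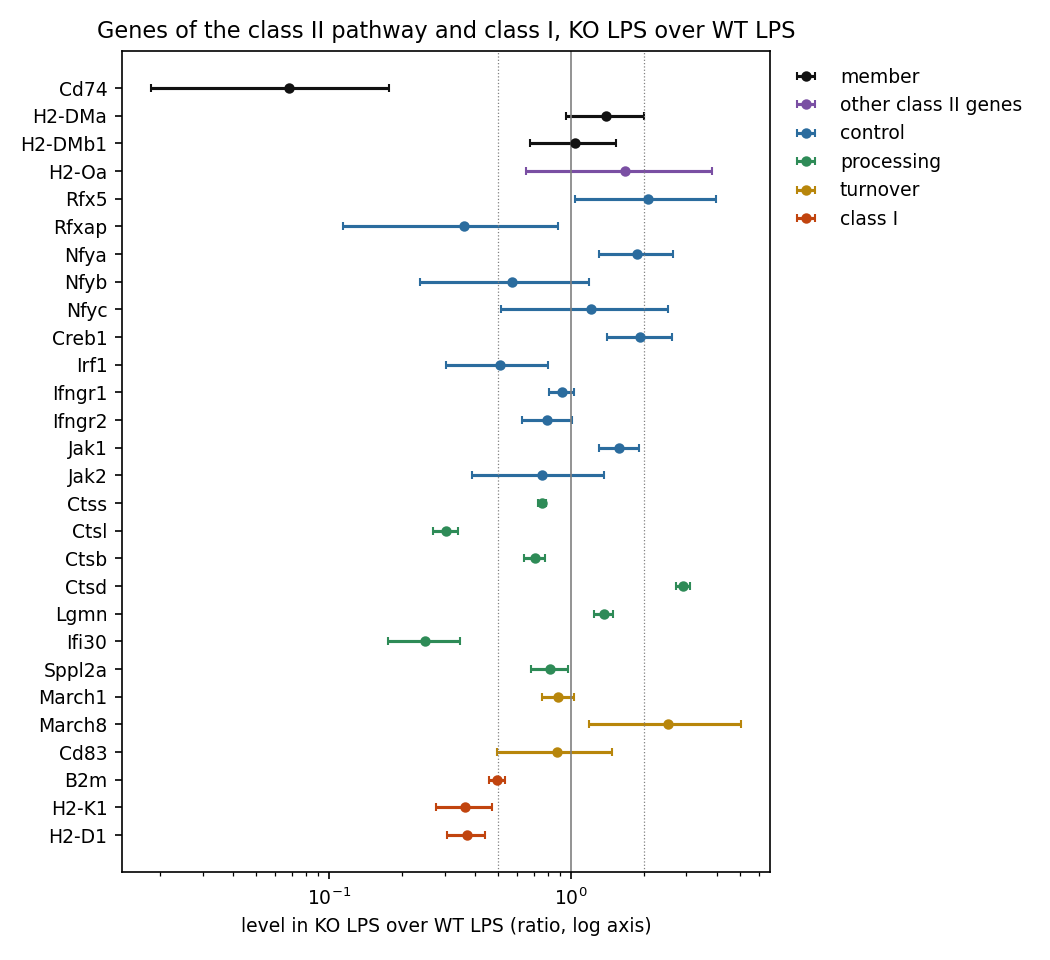
Ratio of KO LPS over WT LPS (log axis) for the members, the pathway genes described here and the class I genes that reached 20 UMIs over both libraries, with exact conditional 95% intervals. The solid line marks equal levels and the dotted lines a 2-fold difference. Cd74 has the lowest ratio shown, 0.0682, and the DM chains lie at 1.40 and 1.04.

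The genes whose level per cell most resembled the summed members had weak correlations. In WT LPS, over 1427 cells and 8420 genes, they were B2m (Pearson's r = 0.195), Actb, Tmsb4x, Cst3 and C1qb (0.177). In KO LPS, over 320 cells and 3361 genes, they were Cab39 (0.247), Cpne3, Wasl, Rpl41 and 2810004N23Rik (0.198). The summed level itself correlated with log depth at 0.197 and 0.0881. In counts this sparse, correlations of this size are given as a description only.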

How the data were processed

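The authors deposited 1 matrix of raw counts (UMIs per gene and barcode) per library, unfiltered and not normalised. The study sorted living CD11b+CD45int cells after myelin removal and prepared Drop-seq libraries, 1 per genotype from 2 pooled mice each. The submitters' processing notes name bcl2fastq 2.0 and STAR, and mouse builds without their roles. The counting program, annotation and strand setting are not given in the sources used here. Genes with missing values in 1 library were read as 0.

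Members, gene lists and subsets were chosen with earlier results of these data known. Genes named are the members, the pathway and class I lists, Park7 and, per library, the 5 genes most correlated with the members among genes in at least 20 cells. Saa3, Lcn2, interferon-induced genes and single markers were added as context. Cells had at least 500 UMIs and 100 genes, and doublets were left in. UMIs were summed per library and given in CPM. Intervals are 95%: exact Poisson (levels), conditional binomial (ratios) and Clopper-Pearson (shares). Log2 ratios used a prior count of 0.5. The floor for 0 UMIs is 3 counts per library. Python 3.11.15, numpy 2.4.6, scipy 1.17.1 and pandas 2.3.3 were used. The calculations were tested on simulated data. The study's MAST test was not run, since cells of 1 library are not replicates. Promoters are from RefSeq (GRCm38.p6) and the DM transcripts from GENCODE. A pathway gene that enters the list's counts and a marker gene are not reported here by name.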

Additional observations from a re-analysis of the deposited data

Results flagged for a closer look

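Outside the cells, in barcodes that the comparisons of cells did not use, a pair of members was higher in KO LPS than in WT LPS. Most of these barcodes in KO LPS, 9236 of 9679, are the droplets of 100 UMIs or fewer that served as free RNA. H2-Ab1 reached 16.5 CPM in KO LPS against 1.86 CPM in WT LPS, from 5 and 2 UMIs, a ratio of 8.86 (1.45 to 93.0). The 5 UMIs lay in 5 droplets, and 4 of them were in that free RNA. H2-DMa stood at 65.9 CPM and 36.3 CPM, from 20 and 39 UMIs, a ratio of 1.82 (1.00 to 3.19). In these barcodes Cd74 had 4 and 48 UMIs, a ratio of 0.295 (0.0773 to 0.806), so that it was lower in KO LPS there too. H2-DMb1 had 8 and 29 UMIs, a ratio of 0.977 (0.386 to 2.19). What set the H2-Ab1 count was not tested.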

How the results depend on the processing

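The Cd74 log2 ratio of -3.71 was negative under all 12 alternatives, from -4.49 (without the 3 cells with most member UMIs) to -2.30. The latter, from Y-linked cells, rests on 0 KO LPS UMIs and the prior count, and the ratio's interval ran up to 1.56, so a lower level was not shown there. Among single members, Cd74, H2-Ab1 and H2-DMb1 moved beyond their counting interval, each in Y-linked cells without Xist, where KO LPS had 12 cells. The intervals of H2-Aa, H2-Eb1 and H2-Ab1 are too wide for their values to show stability. In these cells the summed log2 ratio was -1.78 (main -0.70), the 3 highest cells held 100% (KO LPS) and 15.6% (WT LPS) of member UMIs, and 1 pathway gene in place of 4 was at least 2-fold lower. Without Cd74, an alternative chosen after seeing the data, the summed log2 ratio was 0.20, and the share difference of -4.35 percentage points (KO LPS minus WT LPS) became 1.16. In Xist cells that difference was 0.33 in the draw made, but -1.42 over all possible thinnings, which give -3.57 for all cells, and the 3 highest WT LPS cells held 8.74%. The difference was -8.83 without thinning, -8.51 at 1000 UMIs and -0.42 for at least 3 UMIs. The 3 highest KO LPS cells held 23.8% among cells of at least 1000 UMIs, and the highest 1% of WT LPS cells held 14.3%. The cause was not tested, except that fewer cells and UMIs raise a top share by construction. Median-ratio scaling shifted values by under 0.01. No paired analysis was possible because each genotype had 1 library. Depth in KO LPS limits the αβ chains, and the choice of thinning draw limits the shares.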
